A study of Mus musculus with 11 samples.

Results

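The Slc25 family of mitochondrial carriers was examined in hippocampal CA1 of CamkdeltaC transgenic mice and of littermate controls. Members were the protein-coding genes whose mouse GENCODE symbol is Slc25a followed by a number and that had at least 10 raw counts in at least 5 of the 11 libraries. Of 47 such genes in the annotation, 40 met this rule, and all 40 were among the 17293 genes tested out of 48709 gene identifiers counted. The rule did not use the genotype, and each of the 40 reached 10 counts in all 11 libraries. The member nearest to the limit was Slc25a47, with 12 to 47 counts per library. The nearest gene outside it was Slc25a48, with 5 to 18 counts and at least 10 in 4 libraries. Slc25a2, Slc25a21, Slc25a31, Slc25a41, Slc25a43 and Slc25a54 were also outside, with 0 to 17 counts per library.

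The CA1 field of the hippocampus, a brain region needed for memory, was cut out under a microscope and frozen, and its polyadenylated RNA was sequenced. The CamkdeltaC transgenic group had 6 libraries and the littermate control group 5, both from mice aged 3 months. The transgene encodes the C variant of the delta chain of the calcium-regulated kinase CaMKII, and in the line known by this name a heart muscle promoter drives it and the mice develop heart failure. The series title concerns heart failure and memory, and the question put to CA1 is which transcripts differ there in these mice. Males and females were both used, and the labels give no sex, litter, strain or batch for a library. No label ties a library to its own animal, so the p-values measure only the spread between these libraries, which may be technical.

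Slc25 carriers are small proteins that move metabolites, nucleotides, cofactors and ions across the mitochondrial inner membrane, which is otherwise closed to them. A carrier is built of repeats of a pair of membrane helices, and a repeat typically carries the family signature P-x-[D/E]-x-x-[K/R], whose charged residues close the carrier on one side during transport. Neurons depend on these carriers to exchange ADP for ATP, to bring in phosphate, and to pass electrons of cytosolic NADH into mitochondria through the malate-aspartate shuttle. Close relatives often share a substrate, such as glutathione for Slc25a39 and Slc25a40, pyrimidine nucleotides for Slc25a33 and Slc25a36, and iron for Slc25a28 and Slc25a37.

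The coding stretches around the first signature of both members of 2 such pairs are printed because these carriers share a substrate while their transcripts differ in base composition, and because their ratio differed between the groups. Each stretch has 90 bases on the coding strand, 5′ to 3′, with the 18 bases of the signature codons in capitals, and was read from the GENCODE transcripts on build GRCm38/mm10. Each joins 2 exons, so that the coordinates span an intron.
Slc25a39: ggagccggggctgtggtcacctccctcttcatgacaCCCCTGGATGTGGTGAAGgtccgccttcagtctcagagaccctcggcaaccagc
Slc25a40: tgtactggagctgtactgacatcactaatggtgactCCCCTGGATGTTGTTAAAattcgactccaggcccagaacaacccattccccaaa
Slc25a33: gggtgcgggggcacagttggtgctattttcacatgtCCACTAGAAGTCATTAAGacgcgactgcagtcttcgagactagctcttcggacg
Slc25a36: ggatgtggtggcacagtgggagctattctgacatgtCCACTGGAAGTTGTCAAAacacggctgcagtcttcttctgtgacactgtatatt

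The stretch of Slc25a39 lies at chr11:102406363-102406585 on the minus strand and that of Slc25a40 at chr5:8427486-8428687 on the plus strand. The stretch of Slc25a33 lies at chr4:149762459-149774001 and that of Slc25a36 at chr9:97100152-97110912, both on the minus strand. Slc25a39 and Slc25a40 differed at 36 of the 90 bases, 21 of them at the third codon position. Within their signature 3 of 18 bases differed, and all 3 were at the third codon position. Slc25a33 and Slc25a36 differed at 28 of 90 bases, 19 of them at the third codon position, and at 5 of the 18 signature bases, 4 of them at the third codon position. GC content was 63.3% in the Slc25a39 stretch and 47.8% in that of Slc25a40, and 53.3% in the Slc25a33 stretch and 47.8% in that of Slc25a36. Across the 40 members the signature was found 3 times in 24 coding sequences, 2 times in 8 and once in 5, and it was not found in Slc25a46, Slc25a51 and Slc25a53.

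Total counts ranged from 24403918 to 34153726 in transgenic libraries. In controls they were 31679533 to 36898689, except in control 5, with 14263784. The CA1 pyramidal cell marker Wfs1 stood at 302 to 373 CPM in transgenic and 142 to 330.3 CPM in control libraries, and the dentate marker Prox1 at 18.6 to 55.5 CPM in transgenic and 18.6 to 76.0 CPM in control libraries. No marker of pyramidal cells (7 tested), of dentate gyrus, CA3 or CA2 (8), or of oligodendrocytes (8) passed the test. Slc32a1 rose among 8 interneuron markers (0.22) and Rgs5 fell among 8 endothelial and mural markers (-0.34). The other interneuron markers did not pass and went both ways. They ran from Gad2 at -0.19 (edgeR adjusted p 0.0629) to Sst at 0.37 (edgeR adjusted p 0.0799), with Gad1 at -0.08. Over all genes tested 7.41% rose and 10.5% fell. With each library's GC trend removed Slc32a1 and Rgs5 stood at 0.00 and -0.05 and neither passed. Slc32a1 also lost its call without transgenic 2 or 3. CPM are counts scaled to a common library size, here with TMM factors. Camk2d, the gene carried by the transgene, had a log2 fold change of -0.08 with an edgeR adjusted p of 0.873 in CA1. Libraries differed in how counts followed GC content. The slope of log2 CPM, relative to a gene's mean, per 10 points of transcript GC content was 0.274, 0.259, 0.176, 0.099, 0.016 and -0.061 in transgenic 1 to 6. It was -0.119, -0.062, -0.201, -0.220 and -0.161 in control 1 to 5. Every transgenic library was above every control, transgenic 6 only just above control 2. Xist, which is expressed from the inactive X chromosome of females, was at 591 to 632 CPM in transgenic 1, 2 and 3 and at 1020.3 to 1111 CPM in control 1, 3 and 4, and at most at 1.49 CPM in the others. With its level as a covariate 9 members rose and 5 fell, and over all genes 1657 rose and 2251 fell, against 1282 and 1812 without it.

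Measured per kilobase of exon, Slc25a4, the heart and brain type ADP/ATP carrier, had the highest level of the family. It stood at 252 CPM per kb in transgenic and 245 CPM per kb in control libraries. Slc25a23, a calcium-sensitive ATP-Mg/phosphate carrier, followed with 109 CPM per kb in transgenic and 97.5 in control libraries, and Slc25a3, the phosphate carrier, with 69.1 in transgenic and 67.2 in control libraries. Slc25a11, the oxoglutarate carrier, Slc25a22, a glutamate carrier, and Slc25a5, the second ADP/ATP carrier, had means over all libraries of 47.2 ± 3.69, 46.0 ± 3.62 and 44.3 ± 2.75 CPM per kb (SD, n = 11). The order of these 3 neighbours is within their spread between libraries, whereas the steps from Slc25a4 to Slc25a23 and from there to Slc25a3 are not. That spread leaves out the choice of length, which here joins all annotated exons (5294 bases for Slc25a23, 5550 for Slc25a3). The coding transcript read for Slc25a3 has 1071 coding and 390 3' untranslated bases, and that for Slc25a23 has 1401 and 1768. The order of Slc25a23 and Slc25a3 therefore depends on the length used. In all, 6 members were above 40 CPM per kb and 7 were under 2. Slc25a47 had the lowest level, 0.366 in transgenic and 0.377 in control libraries. Together the 40 members held 3172 to 3399 CPM in transgenic and 3078 to 3213 CPM in control libraries.

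**Figure D1:**
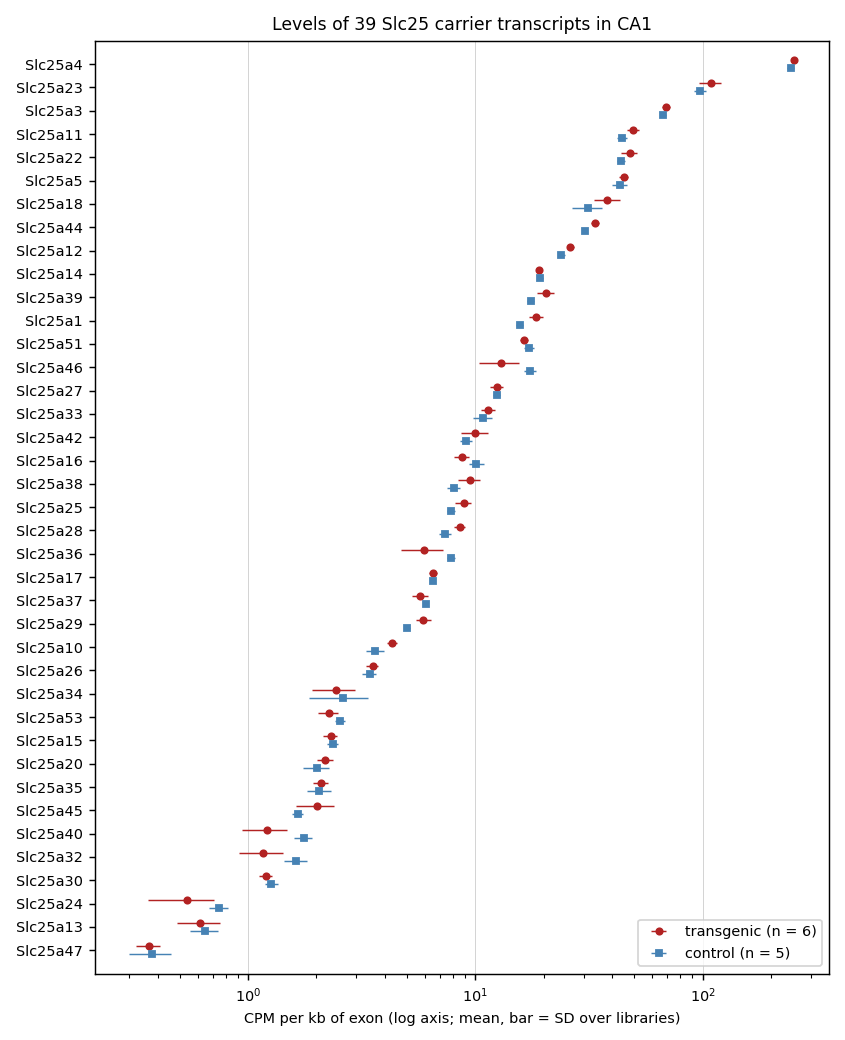
Mean level of 39 of the 40 Slc25 members in CPM per kilobase of exon on a log axis, for transgenic (circles, n = 6) and control libraries (squares, n = 5), with bars of 1 SD. Levels run from 252 in transgenic and 245 in control libraries for Slc25a4 to 0.366 in transgenic and 0.377 in control libraries for Slc25a47.

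In transgenic CA1, 6 of the 40 carriers rose and 5 fell at an edgeR adjusted p under 0.05, and 29 did not pass. The carriers that rose were those of citrate (Slc25a1), dicarboxylates (Slc25a10), basic amino acids (Slc25a29), branched-chain amino acids (Slc25a44), glutathione (Slc25a39) and iron (Slc25a28). Those that fell were the glutathione carrier Slc25a40, the folate and FAD carrier Slc25a32, the outer membrane protein Slc25a46, the pyrimidine nucleotide carrier Slc25a36, and Slc25a16, a relative of the coenzyme A carriers. The rises were 0.15 to 0.25 on the log2 scale and the falls -0.21 to -0.53. The calls made up 15% of members upward and 12.5% downward, against 7.41% upward and 10.5% downward among all genes tested, and 27.5% against 17.9% in either direction. The median log2 fold change was 0.045 over the members and 0.009 over all genes tested. In bulk tissue, fewer cells of a type and less RNA per cell cannot be told apart.

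These counts depended on single libraries. Over all genes tested 1282 rose and 1812 fell, and these counts moved too. Without transgenic 1 the members that rose and fell numbered 2 and 1 (580 and 1090 genes over all), without transgenic 2 they numbered 1 and 0 (394 and 891), and without transgenic 3 they numbered 3 and 1 (488 and 992). Without transgenic 4 they were 7 and 2 (972 and 1213), without transgenic 5 they were 8 and 4 (1223 and 1893), and without transgenic 6 they were 11 and 6 (2132 and 2580). Without control 1 they were 1 and 3 (594 and 1241) and without control 2 they were 10 and 4 (1696 and 1830). Without control 3, 4 or 5 they were 1 and 0 each time, where 573, 361 and 404 genes rose over all and 999, 794 and 885 fell. Slc25a1 was the member that kept its call in all 11 of these fits, at adjusted p of 0.00564 to 0.0492. In 4 members every transgenic library was above every control library (Slc25a1, Slc25a10, Slc25a29 and Slc25a39) and in 1 every transgenic library was below (Slc25a36). That is 12.5% of the members, against 7.77% of all genes tested, of which 3.04% had the transgenic libraries above and 4.73% below.

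**Figure D2:**
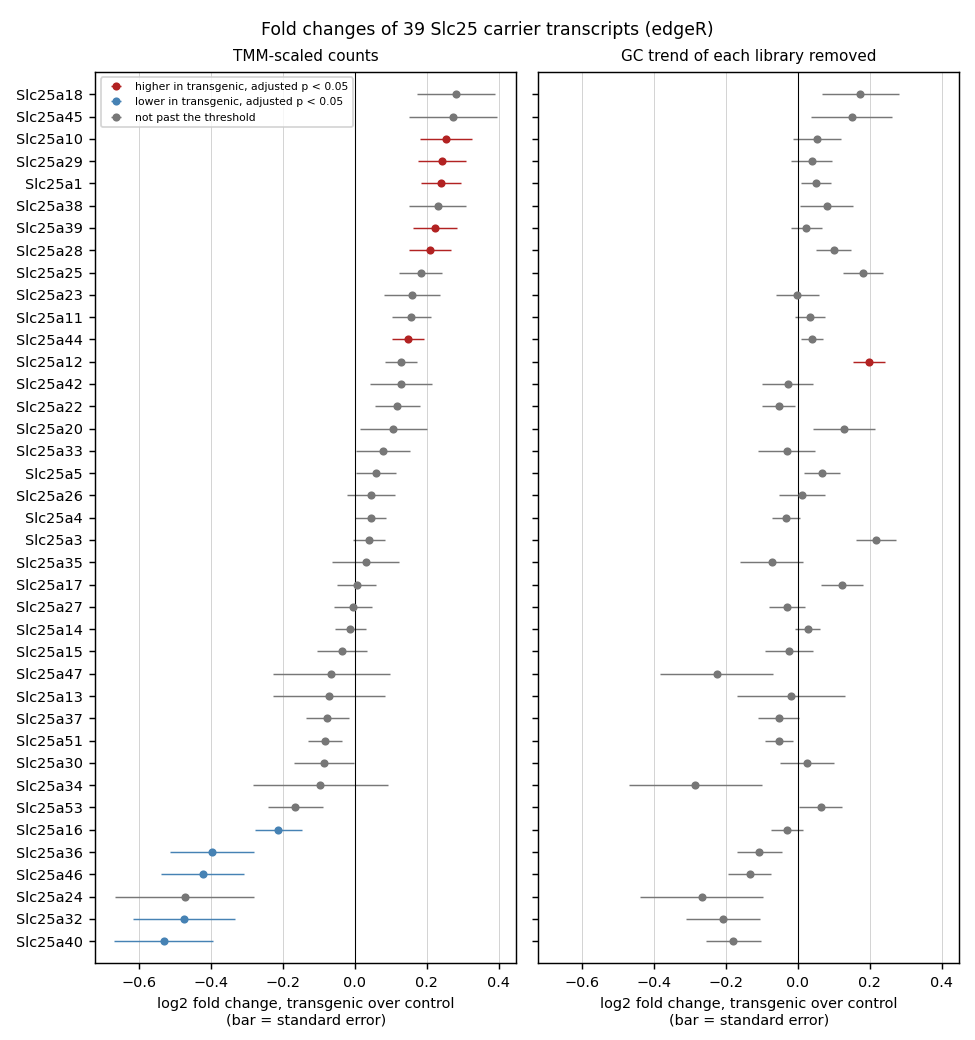
Log2 fold change (transgenic over control) of 39 of the 40 Slc25 members, each with its standard error, from edgeR on TMM-scaled counts (left) and with each library's GC trend removed (right). On the left 6 members rose (red) and 5 fell (blue), and on the right only Slc25a12 passed the threshold.

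Among carriers of di- and tricarboxylates, 2 of 3 tested members rose and none fell, against 7.41% higher and 10.5% lower among all genes tested. Slc25a1 exports citrate for lipid synthesis in the cytosol (chromosome 16, 17925223 to 17928219, minus strand). It stood at 39.8, 45.4, 40.6, 39.7, 38.2 and 36.9 CPM in transgenic 1 to 6, against 33.4, 35.9, 33.6, 32.7 and 34.3 CPM in control 1 to 5. The groups did not overlap, and transgenic 2 was the highest library. The log2 fold change was 0.24 (SE 0.06, edgeR adjusted p 0.0171). Slc25a10, which exchanges malate or succinate for phosphate (chromosome 11, 120491840 to 120499187), had 15.2, 15.8, 14.02, 15.1, 14.02 and 15.4 CPM in transgenic libraries, against 12.2, 13.9, 12.1, 11.1 and 13.4 CPM in controls. Its groups were close, with the lowest transgenic library just above control 2. It rose by 0.25 (SE 0.07, adjusted p 0.0316), and the call was lost without transgenic 1, 2 or 4 or without control 1, 3, 4 or 5, at adjusted p of 0.0504 to 0.0846. Antisense transcript Gm11788 covers 6.6% of its exon bases. Slc25a11, the oxoglutarate/malate carrier of the malate-aspartate shuttle, ranged from 95.2 to 111 CPM with a median of 107 in transgenic libraries, against 90.4, 98.6, 97.5, 96.3 and 87.9 CPM in controls. It missed the threshold at 0.16 (SE 0.05, adjusted p 0.0556), and Rnf167 covers 8.9% of its exon bases on the other strand. Without transgenic 5, transgenic 6 or control 2 it passed, at adjusted p of 0.0291, 0.0323 and 0.0427.

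Among amino acid carriers, 2 of 8 tested members rose and none fell, where 7.41% of all genes tested rose and 10.5% fell. Slc25a29, a carrier of arginine, lysine and ornithine (chromosome 12, 108825873 to 108835883, minus strand), had 15.1, 16.1, 17.2, 14.97, 15.3 and 13.8 CPM in transgenic 1 to 6, against 12.9, 13.4, 12.6, 12.9 and 13.5 CPM in control 1 to 5. The groups did not overlap, with transgenic 6 nearest to the controls. It rose by 0.24 (SE 0.07, adjusted p 0.0270). Its neighbour Slc25a47, which begins close by and runs the other way, did not pass at -0.07 (SE 0.16, adjusted p 0.811), from 0.922, 1.22, 1.28, 1.02, 1.03 and 1.08 CPM in transgenic and 1.16, 1.43, 0.950, 1.26 and 0.841 CPM in control libraries. Slc25a44, which imports branched-chain amino acids (chromosome 3, 88410498 to 88425139), had 127, 120.4, 124, 118, 118 and 113 CPM in transgenic libraries, against 108, 114, 108, 106 and 106 CPM in controls. Transgenic 6 was within the range of the controls. The rise of 0.15 (SE 0.04, adjusted p 0.0355) was the smallest of the called changes. The call of Slc25a29 was lost without transgenic 2 or 3 or without control 1, 3, 4 or 5, at adjusted p of 0.0522 to 0.0669. That of Slc25a44 was lost without transgenic 1, 2 or 3 or without control 1, 3, 4 or 5, at adjusted p of 0.0636 to 0.0827.

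Slc25a12, the calcium-activated aspartate/glutamate carrier of neurons and muscle (chromosome 2, 71271063 to 71367749, minus strand), was just outside the threshold. It had 193, 187, 201, 198, 191 and 183 CPM in transgenic 1 to 6, against 179, 186, 172, 169.5 and 173 CPM in control 1 to 5. Only control 2 was above the lowest transgenic library. The log2 fold change was 0.13 (SE 0.04, adjusted p 0.0582), and it passed without transgenic 6 (adjusted p 0.0309) or without control 2 (0.0363). Slc25a13, the related carrier best known from liver, was scarce, at 1.92 to 3.08 CPM with a median of 2.17 in transgenic libraries and at 2.31, 2.76, 2.90, 2.16 and 2.17 CPM in controls. Slc25a22, a glutamate carrier, had 247 to 313 CPM with a median of 287 in transgenic libraries and 264, 272, 249, 258 and 275 CPM in controls. Its log2 fold change was 0.12 (SE 0.06, adjusted p 0.190). Slc25a18, the other glutamate carrier and one known from astrocytes, had 59.9 to 85.0 CPM with a median of 73.6 in transgenic libraries, against 48.2, 71.9, 58.6, 65.4 and 55.6 CPM in controls. At 0.28 (SE 0.11, adjusted p 0.0829) it had the largest positive fold change of the family without passing, and it passed without transgenic 5 (adjusted p 0.0432) or without control 2 (0.0330). Of 8 astrocyte markers Aldh1l1 rose (0.24) and Slc1a2 fell (-0.17), against 7.41% higher and 10.5% lower among all genes tested, and neither passed with the GC trend removed (0.11 and -0.06). Aldh1l1 lost its call without transgenic 2 or control 1 or 5, and Slc1a2 kept its call only without transgenic 6 or control 2. None of the 8 was at 0, and their summed level was 4591 to 5458 CPM in transgenic and 5388 to 6070 CPM in control libraries. Slc1a2 alone averaged 3388 CPM in transgenic and 3810 CPM in control libraries, so the sum mostly follows this gene. The part of these markers in the values of Slc25a18 was not tested. Slc25a38, a glycine carrier needed for heme synthesis, was at 0.23 (SE 0.08, adjusted p 0.0573), and Slc25a15, the ornithine carrier, at -0.04 (SE 0.07, adjusted p 0.758). Slc25a38 passed without transgenic 4 or transgenic 6, at adjusted p of 0.0459 and 0.0290.

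None of the 6 tested carriers of adenine nucleotides and phosphate passed, where 17.9% of all genes tested passed in either direction. Slc25a4 (chromosome 8, 46206797 to 46211284) had 594, 606, 593, 569, 600.5 and 601 CPM in transgenic 1 to 6, against 558, 595, 593, 579 and 554 CPM in control 1 to 5. The groups overlapped, and the log2 fold change was 0.04 (SE 0.04, adjusted p 0.491). Slc25a5, which is X-linked, had 69.1 to 77.8 CPM with a median of 75.5 in transgenic libraries and 68.8, 72.9, 79.4, 70.1 and 64.7 CPM in controls, a log2 fold change of 0.06 (SE 0.06, adjusted p 0.483). Its pseudogene Slc25a5-ps took 0 to 4 counts per library. Slc25a3 had 367 to 402 CPM with a median of 383 in transgenic libraries and 379.9, 389, 367, 365 and 364 CPM in controls, a log2 fold change of 0.04 (SE 0.04, adjusted p 0.549). Of the ATP-Mg/phosphate carriers, Slc25a25 had 0.18 (SE 0.06, adjusted p 0.0505), Slc25a23 had 0.16 (SE 0.08, adjusted p 0.161) and the scarce Slc25a24 had -0.47 (SE 0.19, adjusted p 0.101). Single libraries decided these. Without transgenic 6 Slc25a23 passed at 0.21 (adjusted p 0.0242) and Slc25a24 at -0.65 (0.0127). Slc25a25 passed without transgenic 4 (adjusted p 0.0291), transgenic 6 (0.0258) or control 2 (0.0472).

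The 3 carriers related to the uncoupling proteins did not pass either, against the same 17.9% of all genes tested. Slc25a27, also called UCP4, had 43.9 to 52.3 CPM with a median of 48.3 in transgenic libraries, against 47.2, 50.4, 48.3, 47.9 and 51.2 CPM in controls, and its log2 fold change was -0.00 (SE 0.05). Slc25a14, also called UCP5 and X-linked, had 43.1 to 46.3 CPM with a median of 45.6 in transgenic libraries, against 44.0, 46.0, 45.7, 47.5 and 44.0 CPM in controls, a log2 fold change of -0.01 (SE 0.04). The groups overlapped for both. Slc25a30 stood at -0.08 (SE 0.08, adjusted p 0.502).

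Carriers of cofactors, nucleotides, carnitine and glutathione went both ways, with 1 of 12 rising and 4 falling, against 7.41% and 10.5% of all genes tested. The members of the glutathione pair were on opposite sides. Slc25a39 (chromosome 11, 102402985 to 102407946) had 63.3, 58.9, 60.3, 51.2, 53.3 and 52.3 CPM in transgenic 1 to 6, against 48.0, 50.9, 47.0, 49.2 and 47.0 CPM in control 1 to 5. Slc25a40 (chromosome 5, 8422850 to 8454797) had 7.34, 8.21, 10.05, 9.88, 12.3 and 13.1 CPM in transgenic libraries, against 14.4, 12.6, 14.98, 15.6 and 16.1 CPM in controls. For both genes transgenic 1 and 2 were far from the controls and transgenic 6 was near or within their range. Slc25a39 rose by 0.22 (SE 0.06, adjusted p 0.0271), and Slc25a40 had the largest fall of the family, at -0.53 (SE 0.14, adjusted p 0.0220). The call of Slc25a40 was lost without transgenic 2 or without control 3, 4 or 5, at adjusted p of 0.0518 to 0.0583. That of Slc25a39 was lost without transgenic 1, 2 or 3 or without control 1, 3, 4 or 5, at adjusted p of 0.0542 to 0.0651.

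Slc25a36 (chromosome 9, 97074961 to 97111157), the pyrimidine nucleotide carrier, had 45.6, 44.5, 52.0, 59.0, 71.4 and 70.6 CPM in transgenic 1 to 6, against 72.1, 72.0, 77.6, 77.0 and 78.0 CPM in control 1 to 5. Every transgenic library was below every control, transgenic 5 and 6 only just. It was at -0.40 (SE 0.12, adjusted p 0.0356). Its partner Slc25a33 had 18.7 to 23.0 CPM with a median of 21.8 in transgenic libraries, against 18.9, 23.1, 21.5, 19.4 and 18.6 CPM in controls, and did not pass at 0.08 (SE 0.07, adjusted p 0.481). Antisense transcript Gm13068 covers 14.9% of the exon bases of Slc25a33. Slc25a32, a carrier of folate and FAD (chromosome 15, 39091231 to 39112716), had 6.84, 5.12, 6.41, 6.43, 8.27 and 9.51 CPM in transgenic libraries, against 10.4, 8.11, 11.3, 9.67 and 10.03 CPM in controls. Its groups overlapped through transgenic 5 and 6 and control 2, and it was at -0.47 (SE 0.14, adjusted p 0.0369). Slc25a16 (chromosome 10, 62920633 to 62946498) had 38.2, 38.5, 41.6, 45.4, 42.2 and 45.6 CPM in transgenic libraries, against 43.2, 47.5, 51.1, 52.6 and 48.5 CPM in controls. Control 1 was below transgenic 4 and 6, and the log2 fold change was -0.21 (SE 0.07, adjusted p 0.0407). Slc25a36 and Slc25a32 both lost their calls without transgenic 1, 2, 3 or 4 or without control 1, 3, 4 or 5, at adjusted p of 0.0573 to 0.0779 for Slc25a36 and 0.0694 to 0.0924 for Slc25a32. Slc25a16 lost its call without transgenic 1, 2, 3 or 5 or without control 2, 3, 4 or 5, at adjusted p of 0.0513 to 0.106.

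The other cofactor carriers did not pass. Slc25a51, which imports NAD, stood at -0.08 (SE 0.05, adjusted p 0.231) and Slc25a42, the coenzyme A carrier, at 0.13 (SE 0.09, adjusted p 0.313). Slc25a20, the carnitine/acylcarnitine carrier, was at 0.11 (adjusted p 0.441), Slc25a26, the S-adenosylmethionine carrier, at 0.05 (adjusted p 0.672) and Slc25a17, the carrier of peroxisomes, at 0.00 (adjusted p 0.961).

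Of the iron carriers of the inner membrane, the mitoferrins, Slc25a28 (chromosome 19, 43663801 to 43674881) rose and Slc25a37 did not pass. Slc25a28 had 34.7, 32.4, 30.6, 31.4, 33.2 and 29.7 CPM in transgenic 1 to 6, against 26.7, 30.4, 28.0, 27.0 and 26.2 CPM in control 1 to 5. Transgenic 6 was below control 2, and the rise was 0.21 (SE 0.06, adjusted p 0.0287). Slc25a37 had 31.7 to 38.4 CPM with a median of 33.1 in transgenic libraries, against 37.3, 36.8, 34.7, 36.3 and 36.9 CPM in controls, with a log2 fold change of -0.08 (SE 0.06, adjusted p 0.398). The call of Slc25a28 was lost without transgenic 1 or 2 or without control 1, 3, 4 or 5, at adjusted p of 0.0534 to 0.0724. Of 8 microglia markers, 4 rose (Tyrobp, C1qa, C1qb and Csf1r), against 7.41% of all genes tested. P2ry12, on the same list, went the other way at -0.24 without passing (adjusted p 0.100), and Tmem119 did not pass at 0.29 (adjusted p 0.0629). With the GC trend removed none of the 4 passed, at 0.20, 0.08, 0.09 and 0.12, and the median of the list was 0.09 where it had been 0.26. Leaving out 1 library ended the call of Tyrobp in 6 of 11 fits, of C1qa and Csf1r in 8 and of C1qb in 9, in each case including those without transgenic 1, 2 or 3. The summed level of the 8 was 289 to 384 CPM in transgenic and 260.4 to 315 CPM in control libraries, with none at 0, and their part in the values of Slc25a28 was not tested.

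Slc25a46, a mitochondrial outer membrane protein that acts in the fusion and shape of mitochondria, fell. It had 55.1, 56.1, 69.1, 68.0, 85.7 and 88.6 CPM in transgenic 1 to 6, against 88.5, 89.0, 98.6, 102 and 95.0 CPM in control 1 to 5. Only transgenic 6 was above the lowest control. The log2 fold change was -0.42 (SE 0.12, adjusted p 0.0270), and the call was lost without transgenic 1, 2, 3 or 4 or without control 3, 4 or 5, at adjusted p of 0.0512 to 0.0696. B930094E09Rik covers 7.1% of its exon bases on the other strand. Slc25a34, Slc25a35, Slc25a45 and the X-linked Slc25a53 did not pass, at -0.10, 0.03, 0.27 and -0.17. Rangrf covers 31.3% of the exon bases of Slc25a35 on the other strand, and without strand its reads cannot be told apart.

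**Figure D3:**
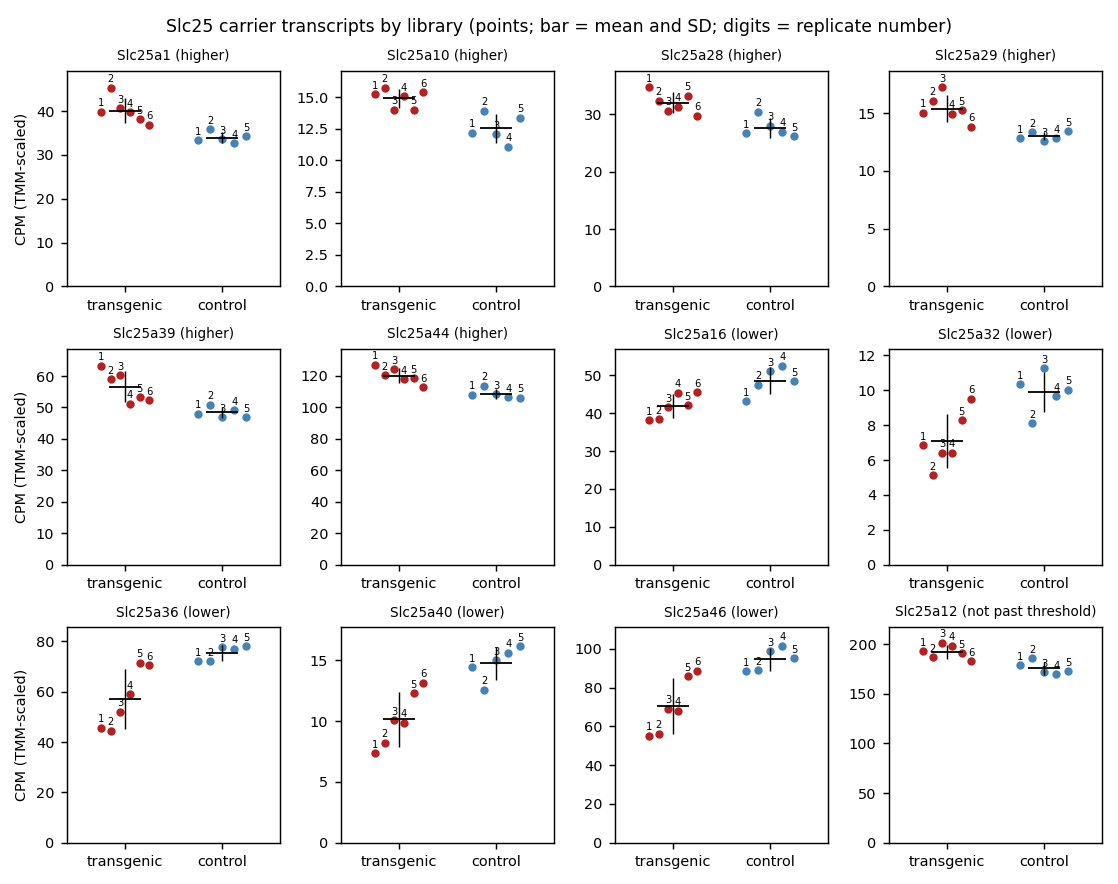
CPM (TMM-scaled) in each library for the 11 called Slc25 members and Slc25a12, transgenic left and control right, with digits for the replicate number and bars for the mean and SD. In Slc25a32, Slc25a36, Slc25a40 and Slc25a46 transgenic 5 and 6 lie nearest to the controls, as Slc25a36 shows with 71.4 and 70.6 CPM in them against 72.0 CPM or more in controls.

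The carriers that rose and those that fell did not overlap in GC content. The longest transcript had 53.4% to 60.6% GC in the 6 that rose (median 59.4%) and 39.4% to 43.4% in the 5 that fell (median 40.7%), and 42.3% to 58.0% in the 29 that did not pass (median 49.8%). Of the 7 members with at most 43.4% GC, 5 fell, but this limit was the highest value among those that fell and so holds all 5. Among all genes tested 10.5% fell, and the share among those of low GC content was not computed. Across the 40 members the log2 fold change and GC content had a Spearman correlation of 0.750 and a Pearson correlation of 0.788. Across all genes tested the Spearman value was 0.684. These are descriptions across genes, which share the same 11 libraries. The composition of the protein-coding sequence differed in the same way, with a median GC content at the third codon position of 70.8% in members that rose and 47.8% in those that fell, and so did that of the 3' untranslated region, with 55.8% in members that rose and 37.5% in those that fell. Members that fell also had longer 3' untranslated regions, 3023 bases in the median against 724 in those that rose. In the printed stretches, the third codon position held 73.3% GC in Slc25a39 and 43.3% in Slc25a40. The gap was smaller in the other pair, with 43.3% in Slc25a33 and 33.3% in Slc25a36.

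After the GC trend of each library was removed, none of the 11 called members passed the threshold. All 11 kept their sign, at adjusted p of 0.233 to 0.821. The GC slopes of the 2 genotypes did not overlap, so the removal also takes out any genotype difference that follows GC content. Slc25a40 was then at -0.18 (SE 0.08, adjusted p 0.233), Slc25a46 at -0.13 (SE 0.06, adjusted p 0.253), Slc25a1 at 0.05 (SE 0.04, adjusted p 0.576) and Slc25a39 at 0.02 (SE 0.04, adjusted p 0.821). The Spearman correlation of the members' fold changes with GC content was then 0.125, a drop that the removal itself brings about. Over all genes 1.98% were called after the removal (1.16% higher and 0.821% lower), so that the Benjamini-Hochberg adjustment was stricter than before. The log2 fold changes of the 11 members had also shrunk, to a median of 0.27 of their size before the removal. With GC and length trends removed 1 member rose and none fell, against 1.16% and 0.544% of all genes (1.7% in either direction).

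Slc25a12 passed the threshold after the removal, the only member to do so, at 0.20 (SE 0.04, adjusted p 0.0419). On the log2 CPM scale with the trend removed it had 7.65, 7.60, 7.70, 7.65, 7.59 and 7.51 in transgenic 1 to 6, against 7.46, 7.52, 7.36, 7.34 and 7.39 in control 1 to 5. Transgenic 6 was just below control 2 and the other libraries were apart. In fits that also left out 1 library the call held without transgenic 6 (0.22, adjusted p 0.0128) and without control 2 (0.23, adjusted p 0.0242). It was lost without any of the other 9, at 0.18 to 0.21 and adjusted p of 0.0549 to 0.117. Over all alternatives its adjusted p was 0.0128 to 0.178. Slc25a3 went to 0.22 (SE 0.06) and missed the threshold (adjusted p 0.0627), with 8.71, 8.75, 8.76, 8.64, 8.64 and 8.47 in transgenic and 8.50, 8.56, 8.38, 8.37 and 8.41 in control libraries on the same scale. It passed without transgenic 6 (0.25, adjusted p 0.0101) or without control 2 (0.25, adjusted p 0.0422), and its adjusted p was 0.0101 to 0.736 over all alternatives. Slc25a12 and Slc25a3 have 46.6% and 43.6% GC in their longest transcript, the value used for the removal. The coding transcript read for Slc25a3 has 52.2% GC in its 1071 coding bases and 31.3% in its 390 3' untranslated bases. How its value after the removal depends on the transcript used was not tested.

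**Figure D4:**
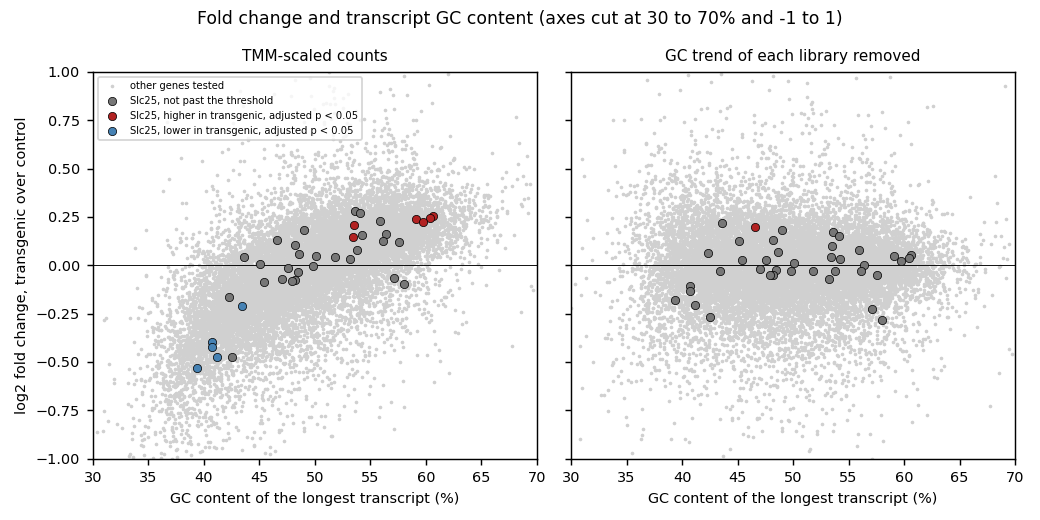
Log2 fold change (transgenic over control) against GC content of the longest transcript for genes tested (grey points) and 39 of the 40 Slc25 members (circles), before (left) and after (right) removal of each library's GC trend. The axes stop at 30% and 70% GC and at -1 and 1, so genes beyond are not drawn. On the left the members that rose lie at 53.4% GC or more and those that fell at 43.4% or less. On the right the Spearman correlation across members is 0.125, which the removal itself lowers.

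The balance between carriers that share a substrate was compared within each library as the log2 ratio of their CPM, over 6 pairs, with two-sided exact permutation of the genotype labels and p-values adjusted over the 6 pairs. Ratios were higher in transgenic CA1 for 3 pairs, Slc25a39 over Slc25a40, Slc25a33 over Slc25a36, and Slc25a28 over Slc25a37. For Slc25a39 over Slc25a40 the log2 ratio was 3.10, 2.83, 2.58, 2.37, 2.11 and 1.99 in transgenic 1 to 6, against 1.73, 2.01, 1.64, 1.65 and 1.54 in control 1 to 5. Transgenic 6 alone was within the range of the controls. The means of 2.495 ± 0.425 in transgenic (SD, n = 6) and 1.71 ± 0.179 in control libraries (SD, n = 5) differed by 0.78 (exact permutation p 0.0108, adjusted 0.0260). Slc25a33 over Slc25a36 averaged -1.39 ± 0.249 in transgenic and -1.89 ± 0.164 in control libraries, a difference of 0.50 (exact permutation p 0.0108, adjusted 0.0260). Slc25a28 over Slc25a37 averaged -0.11 ± 0.157 in transgenic and -0.40 ± 0.102 in control libraries, a difference of 0.29 (exact permutation p 0.0130, adjusted 0.0260). In these pairs too the groups overlapped. Each of the 3 pairs holds a member called above, and the pairs were chosen with earlier results of these data known. Their p-values therefore add no separate support to those calls. Transcript GC content of the first gene less that of the second was 20.3, 13.1 and 5.3 points in these pairs, in the same order. It was 3.2 points for Slc25a4 over Slc25a5, -0.4 for Slc25a12 over Slc25a13 and 4 for Slc25a22 over Slc25a18.

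The other 3 ratios did not pass. The ADP/ATP carriers Slc25a4 over Slc25a5 averaged 3.00 ± 0.0752 in transgenic and 3.02 ± 0.0724 in control libraries, a difference of -0.02 (exact permutation p 0.690, adjusted 0.690). Slc25a12 over Slc25a13 differed by 0.21 and Slc25a22 over Slc25a18 by -0.17 (exact permutation p 0.223 and 0.214, adjusted 0.268 for both). With the GC trend removed no pair passed. The differences were then 0.21 for Slc25a39 over Slc25a40 and 0.16 for Slc25a28 over Slc25a37 (exact permutation, adjusted p 0.117 for both), and 0.08 for Slc25a33 over Slc25a36 (exact permutation, adjusted p 0.275).

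**Figure D5:**
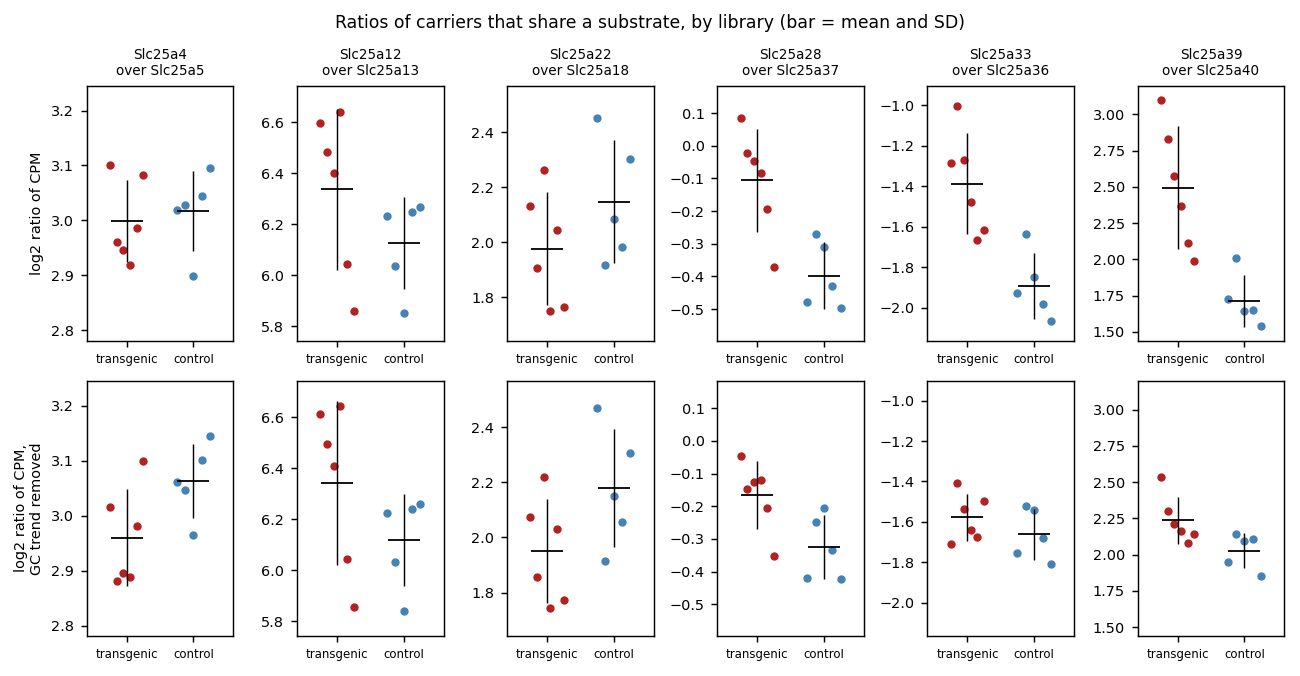
Log2 ratio of CPM of 6 pairs of Slc25 members in each library, transgenic left and control right, with the mean and SD, before (top) and after (bottom) removal of the GC trend. The difference for Slc25a39 over Slc25a40 is 0.78 at the top and 0.21 at the bottom.

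Relatives and partners of the carriers were read from lists, whose counts stand against 7.41% higher and 10.5% lower among all genes tested. Of 4 tested relatives without an Slc25a symbol, Ucp2, an uncoupling protein, rose by 0.34 (SE 0.10, adjusted p 0.0385) and Mtch1, an outer membrane carrier homolog, by 0.25 (SE 0.07, adjusted p 0.0301), while Mtch2 was at -0.04 and Ucp3 at 0.02. Of 7 genes that bring carriers into the inner membrane through TIM22, the receptor Tomm70a fell, at -0.28 (SE 0.08, adjusted p 0.0302), and none rose. Of 6 NADH shuttle enzymes Mdh2, the mitochondrial malate dehydrogenase, rose by 0.18 (SE 0.05, adjusted p 0.0382) and none fell. Among 19 other transport proteins of the inner membrane 3 rose and 2 fell. Smdt1, a subunit of the calcium uniporter, rose by 0.30, Abcb8, an ABC transporter, by 0.22 and Letm1, a cation exchanger, by 0.14. Micu3, a uniporter regulator, was among those that fell, at -0.42. After removal of the GC trend none in these 4 lists was called. Tomm70a was then at 0.02 (adjusted p 0.848) and Micu3 at 0.13 (adjusted p 0.159), with the sign turned in both. Smdt1 was at 0.20 (adjusted p 0.0501), Mdh2 at 0.12 (adjusted p 0.130), Ucp2 at 0.20 (adjusted p 0.256) and Mtch1 at 0.09 (adjusted p 0.368), while Abcb8 and Letm1 stood at 0.06 and 0.04. Smdt1 kept its first call with any 1 library left out, and Abcb8 lost it without control 4. Leaving out transgenic 1, 2 or 3 or control 3, 4 or 5 ended each call of Ucp2, Mtch1, Tomm70a, Mdh2, Letm1 and Micu3. Leaving out transgenic 4 did so too for Mdh2, Letm1 and Micu3, control 1 for Ucp2, Mdh2 and Letm1, and control 2 for Ucp2.

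The authors' deposited tables held 11 of the 40 members as higher and 5 as lower, where the tables hold 10.3% and 11.6% of the genes tested here. All 11 members called here were there on the same side, and Slc25a11, Slc25a12, Slc25a18, Slc25a25 and Slc25a38 were listed as higher in addition. In the authors' deposited tables Slc25a40 had a log2 fold change of -0.53 (authors' adjusted p 0.00295) and Slc25a1 one of 0.24 (authors' adjusted p 0.00334).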

How the data were processed

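The authors deposited raw counts per gene for 11 libraries (48709 Ensembl identifiers, build mm10), prepared with an unstranded TruSeq kit and read as 50-base single ends, per the labels' protocols. STAR 2.5.2b, Subread 1.5.1, featureCounts and FastQC 0.11.5 are named per the submitters' processing notes, without their settings. Genes that overlap or share sequence are therefore uncertain. The authors also deposited tables of genes higher and lower in transgenic mice, giving the authors' log2 fold change and adjusted p-value and a normalized signal for each library, which was not used here. Which tool made them is not stated in the labels.

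Positions, GC content and lengths came from GENCODE on build GRCm38/mm10, and 17246 of 17293 genes tested had a GC value. Counts were tested with edgeR 4.0.16 (R 4.3.3), with filterByExpr by genotype, TMM scaling, the quasi-likelihood F test and Benjamini-Hochberg adjusted p under 0.05 over all 17293 genes, without covariates. For the GC trend, a lowess curve (span 0.3) of each library's log2 CPM deviation on GC content was entered as an offset. Ratios used log2 CPM with a prior count of 2. In simulated data of 17293 genes, 100 of them changed at each size, the fit recovered 53% of changes of 0.5 and 79% of changes of 1 on the log2 scale and called 6 unchanged genes. With the GC trend removed these were 44%, 74% and 7. The first simulation held no GC trend, unlike the libraries, so its 6 calls do not measure false calls in the fit without removal. Changes smaller than 0.5, as in all called members but Slc25a40, were not simulated.

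Groups follow the genotype labels. The members, the gene lists, the pairs and the tests were chosen with earlier results of these data known. Values per library, or the range and median of the 6 transgenic libraries beside each control, were given for called members, members called after GC removal, both genes of each pair, Slc25a3, Slc25a11, Slc25a14, Slc25a27 and the members next to the count limit. Same-numbered libraries of the groups did not deviate together (correlations of -0.185 to 0.197), so the numbers were not taken as pairs. Alternatives were the size factors and test of DESeq2 1.42.0, upper-quartile scaling, other filters, limma 3.58.1 voom, a replicate block, Xist as a covariate, 1 surrogate variable (sva 3.50.0), GC and length trends, a prior count of 0.5, and leaving out each library. Leaving out libraries after GC removal for Slc25a12 and Slc25a3 was added after seeing the data. Values of 1 member and of 1 gene of the lists are not reported here, though both are in the fits and counts.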

Additional observations from a re-analysis of the deposited data

Results flagged for a closer look

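Of 92 groups of member values examined for a library far from the rest of its group, 2 held one, and chance alone gives about 1 in 20 groups. Slc25a4, the main ADP/ATP carrier, was at 569 CPM in transgenic 4, against 593 to 606 CPM in the other transgenic libraries. Slc25a38, the glycine carrier, was at 24.7 CPM in control 3, against 21.03 to 21.95 CPM in the other controls. Slc25a4 did not pass in any fit that left out a library. Slc25a38 missed the threshold in the fit of all libraries (0.23, adjusted p 0.0573) and passed without transgenic 4 (adjusted p 0.0459) or transgenic 6 (0.0290).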

How the results depend on the processing

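No member or ratio that passed changed sign in any alternative, and the median of all genes moved by at most 0.043. The 6 members that rose became 10 with upper-quartile scaling, 2 with no filter, 11 each with DESeq2, voom and 1 surrogate variable, 1 with the GC trend and 1 with GC and length trends removed, and 1 to 11 with 1 library left out. The 5 that fell became 0 with the GC trend or GC and length trends removed, and 0 to 6 with 1 library left out. The members' median of 0.045 became 0.00572 with the GC trend and 4.13e-05 with GC and length trends removed. Over all genes the 1282 rises became 1573 with upper-quartile scaling, 662 with no filter, 1803 with DESeq2 and 2164 with voom. They became 1867 with 1 surrogate variable, 200 with the GC trend and 200 with GC and length trends removed. With 1 library left out they were 361 to 2132. The 1812 falls became 142 with the GC trend and 94 with GC and length trends removed, and 794 to 2580 with 1 library left out. The 3 ratios past the threshold went to 0.16 (Slc25a28 over Slc25a37), 0.0839 (Slc25a33 over Slc25a36) and 0.21 (Slc25a39 over Slc25a40) without the GC trend. The causes of these shifts were not tested. Removal of the GC trend is no such test, because every transgenic library had a higher GC slope than every control.

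With the replicate block 11 members rose and 7 fell, and 2053 genes rose and 2541 fell in all. No control bears the number of transgenic 6, so the block leaves that library out of the genotype comparison. Without transgenic 6 and with no block, 11 members rose and 6 fell, and 2132 genes rose and 2580 fell. The GC trend removed together with the block gave 2 and 0 members, a median of 0.013, and 431 and 315 genes. With the block the 3 ratios were 0.34, 0.55 and 0.88 in the same order (exact permutation, adjusted p 0.125), but 5 signed pairs allow no p below 0.0625. Without transgenic 6 and with no block these ratio differences had the same values. The libraries share only a number.

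Of 920 values of single members 46 had the other sign, in every case with neither fit calling the gene. Of the list genes and markers that were called, Tomm70a and Micu3 turned to 0.0173 and 0.131 with the GC trend removed, 0.0535 and 0.136 with GC and length trends removed, and 0.0243 and 0.141 with the GC trend removed together with the block. Slc32a1 turned to -0.0181 with GC and length trends removed and -0.00991 with the GC trend removed together with the block, and Slc1a2 to 0.00343 with GC and length trends removed; none of these passed. Mtch2, not called in the fit of all libraries, was at 0.24 with the GC trend removed together with the block and passed (adjusted p 0.0361). Alternatives for these genes were added after seeing the data. Control 5, the shallowest library, adds the most counting error for scarce members such as Slc25a13, Slc25a24 and Slc25a47.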
